A study of Mus musculus with 10 samples.

Results

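The arrays of mouse embryonic stem cells in this experiment were divided, within each target (Wapal, Smc3 or no hairpin), into 2 sides, here called side B and side A. Side B held both Wapal shRNA2 arrays, both Smc3 shRNA1 arrays and Empty Vector replicate 2, and side A held both Wapal shRNA1 arrays, both Smc3 shRNA2 arrays and Empty Vector replicate 1. Side B arrays carried more RNA of hypoxia-inducible genes such as Ndrg1, Bhlhe40, Ankrd37 and Egln3, of glycolytic enzymes such as Aldoc, Pfkp and Hk1, of early response and stress genes such as Ier3, Fos and Dusp1, and of the desmosome gene Dsp and the keratin gene Krt19. Side A arrays gave higher signals for probe sets of Kcnq1ot1, Jmjd1c, Mtss1, Braf and Etv4 and for many probe sets without a gene name. The sides were read from these same expression values and are no label of the study. All values that set side B against side A are therefore a description, and no test is given for them.

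The members are the probe sets (groups of short oligonucleotides on the array that measure 1 or more transcripts) that separated the sides in all 3 targets. A probe set was selected where, within each target, the lowest array of one side lay above the highest array of the other by more than 0.3 in log2, in the same direction each time. Of 45037 non-control probe sets, 302 were higher on side B (0.671%) and 223 were higher on side A (0.495%), 525 in all. These percentages are what the selection rule itself fixed. The selected probe sets higher on side B named 237 genes and those higher on side A named 91 genes. Just inside the limit on side B stood Pdgfc with a smallest gap of 0.300033, and just outside it stood Sec24d with 0.299529. On side A the nearest probe sets inside and outside the limit had gaps of 0.300836 and 0.299054 and no gene name.

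The cells were CJ9 embryonic stem cells, a line derived from 129svj mice. They were infected with lentivirus and polybrene at 10 mcg/mL and kept in stem cell medium with LIF and puromycin (4 mcg/mL), which all groups shared. The labels give 48 h for the infection and 48 h for the culture. The study describes the arrays as made from cells 48 h after infection. The lentivirus carried Wapal shRNA1, Wapal shRNA2, Smc3 shRNA1, Smc3 shRNA2 or no hairpin (Empty Vector, pLKO.1). There were 5 groups of 2 arrays, 10 arrays in all. Within the Wapal and the Smc3 arrays the side coincided with the hairpin, so there the side and the hairpin cannot be told apart. Only Empty Vector held both sides with the same construct, with 1 array on each. Nothing in the labels says how the 2 Empty Vector replicates differed in culture, harvest or array batch, and the replicates are called biological with no word on whether they were separate infections.

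As background, cells short of oxygen stabilise the transcription factor HIF-1, which switches on genes for glucose uptake, glycolysis and adaptation to low oxygen. Early response genes such as Fos, Jun and Ier3 are transcribed soon after cells meet serum or stress. Desmosomes and keratins join epithelial cells, and mouse embryonic stem cells grow as tight epithelial colonies.

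Because many of the genes higher on side B are known HIF targets, the start regions of several of them are shown. Each promoter below runs from 250 bases before to 50 bases after the annotated start (RefSeq, mouse build GRCm38.p6), 5′ to 3′ on the gene's own strand. Capitals mark the HIF core ACGTG on either strand, read as ACGTG or CACGT, which overlaps the E-box CACGTG.
Bnip3 (chr7:138909457-138909756, minus strand): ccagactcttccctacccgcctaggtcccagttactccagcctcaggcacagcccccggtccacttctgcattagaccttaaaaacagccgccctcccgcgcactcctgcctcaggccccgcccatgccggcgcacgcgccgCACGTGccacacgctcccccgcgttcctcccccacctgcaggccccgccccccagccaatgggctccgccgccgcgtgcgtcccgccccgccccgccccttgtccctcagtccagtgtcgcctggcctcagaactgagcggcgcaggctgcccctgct
Ankrd37 (chr8:45999801-46000100, minus strand): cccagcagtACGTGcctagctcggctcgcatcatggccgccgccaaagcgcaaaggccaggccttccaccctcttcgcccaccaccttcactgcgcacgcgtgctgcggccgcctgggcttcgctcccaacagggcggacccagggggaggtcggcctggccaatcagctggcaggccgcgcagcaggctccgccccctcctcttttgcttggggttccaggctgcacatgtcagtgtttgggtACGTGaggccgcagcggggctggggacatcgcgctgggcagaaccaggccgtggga
Egln3 (chr12:54203825-54204124, minus strand): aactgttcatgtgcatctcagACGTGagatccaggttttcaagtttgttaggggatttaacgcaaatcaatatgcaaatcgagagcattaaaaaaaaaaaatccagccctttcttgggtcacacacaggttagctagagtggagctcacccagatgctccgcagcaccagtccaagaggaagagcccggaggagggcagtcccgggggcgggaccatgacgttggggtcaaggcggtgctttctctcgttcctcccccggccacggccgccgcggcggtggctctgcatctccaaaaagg
Ddit4 (chr10:59951721-59952020, minus strand): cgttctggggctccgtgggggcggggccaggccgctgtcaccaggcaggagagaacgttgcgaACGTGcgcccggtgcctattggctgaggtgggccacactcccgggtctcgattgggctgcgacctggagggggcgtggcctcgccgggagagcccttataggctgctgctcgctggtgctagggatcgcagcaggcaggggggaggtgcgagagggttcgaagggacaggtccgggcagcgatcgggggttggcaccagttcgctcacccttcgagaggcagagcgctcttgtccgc
Pgk1 (chrX:106186850-106187149, plus strand): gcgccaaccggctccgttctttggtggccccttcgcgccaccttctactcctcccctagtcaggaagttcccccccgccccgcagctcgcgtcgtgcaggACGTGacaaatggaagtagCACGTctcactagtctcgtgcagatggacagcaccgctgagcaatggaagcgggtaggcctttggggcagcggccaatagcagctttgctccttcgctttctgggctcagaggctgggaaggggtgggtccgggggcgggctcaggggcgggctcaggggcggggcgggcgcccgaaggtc
Adm (chr7:110627407-110627706, plus strand): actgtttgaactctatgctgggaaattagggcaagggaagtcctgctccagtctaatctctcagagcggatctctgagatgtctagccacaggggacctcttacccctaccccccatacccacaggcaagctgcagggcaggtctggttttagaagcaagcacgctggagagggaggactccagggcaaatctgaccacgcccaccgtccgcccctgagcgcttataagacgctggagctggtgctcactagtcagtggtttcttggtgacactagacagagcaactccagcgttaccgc

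Bnip3 (a mitophagy receptor), Ankrd37 (an ankyrin repeat protein), Egln3 (an oxygen-sensing prolyl hydroxylase) and Ddit4 (an inhibitor of mTORC1) each held the core at least once, and the glycolytic gene Pgk1 held it 2 times. Adm, which encodes the vessel-dilating peptide adrenomedullin, held none in this window. Of the 21 genes of the glycolysis, glycogen and hypoxia lists that separated the sides, 18 had a promoter in the table, and 16 of these held the core in at least 1 promoter (88.9%). Of the genes of the same lists that did not separate the sides, 24 of 37 held it (64.9%). Among all 27025 genes with a promoter of this length the share was 21.8%. It was 27.8% among the genes higher on side B that matched (50 of 180) and 39.2% among those higher on side A that matched (29 of 74). The core was frequent in these lists, which were written from known targets. Its share among all genes of side B was close to that of all genes and below that of side A. A match of these letters is a description of the sequence only.

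Among the hypoxia genes, Ndrg1, a stress-responsive gene of hypoxic and differentiating cells, had one of the widest splits. Its brightest probe set measured 593 and 747 on the side B Wapal arrays, against 162 and 193 on the side A Wapal arrays. The Smc3 arrays gave 683 and 502 on side B and 79.9 and 127 on side A, and Empty Vector gave 230 on side B and 99.4 on side A (RMA intensity, linear scale). No side A array reached the lowest side B array, and the Empty Vector array was the lowest of side B and the second lowest of side A. Side B minus side A was 2.02 ± 0.19 in log2 (SE of the fit with target as a block, n = 10 arrays), a 4.06-fold difference. In all, 4 of the 5 Ndrg1 probe sets separated the sides.

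Bhlhe40 encodes a helix-loop-helix repressor that hypoxia induces. Its intensities were 193 and 240 on side B against 68.6 and 71.5 on side A in the Wapal arrays. They were 286 and 204 against 53.7 and 44.4 in the Smc3 arrays, and 84.8 against 33.1 in Empty Vector. It had the largest smallest gap of all named genes, 1.36 in log2, and side B minus side A was 1.84 ± 0.15. Adm had the largest difference of the 12 leading genes, 2.33 ± 0.29, by a probe set with 208 and 304 against 38.4 and 60.3 in the Wapal arrays, 703 and 482 against 51.6 and 116 in the Smc3 arrays and 28.7 against 13.8 in Empty Vector. The brightest Adm probe set differed by 1.58 and did not separate the sides, so Adm is not counted among the list genes that did. By the leading probe set, the Empty Vector array of side B was below every depleted array of side A, so it separated the sides within the targets but not across all 10 arrays.

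Ddit4 measured 2785 and 3072 on side B against 1327 and 1371 on side A in the Wapal arrays, 5021 and 4438 against 1480 and 1652 in the Smc3 arrays, and 1450 against 690 in Empty Vector. All side B arrays lay above the side A arrays of their own target, and the fitted difference was 1.30 ± 0.10. Bnip3 measured 2570 and 3318 against 1462 and 1635 in the Wapal arrays, 3320 and 2846 against 945 and 1529 in the Smc3 arrays, and 1336 against 579 in Empty Vector (1.15 ± 0.14). Egln3 measured 458 and 577 against 341 and 352, 943 and 763 against 147 and 252, and 365 against 129 in the same order of targets (1.38 ± 0.24). Its split was narrower in the Wapal arrays (0.57) than in Empty Vector (1.50) and the Smc3 arrays (2.14). The other hypoxia genes that separated the sides were Ankrd37 (1.44), Selenbp1 (1.02), Vegfa, the vascular growth factor (0.79), Egln1, the main oxygen-sensing hydroxylase (0.76), and P4ha1, a collagen hydroxylase (0.72).

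**Figure D1:**
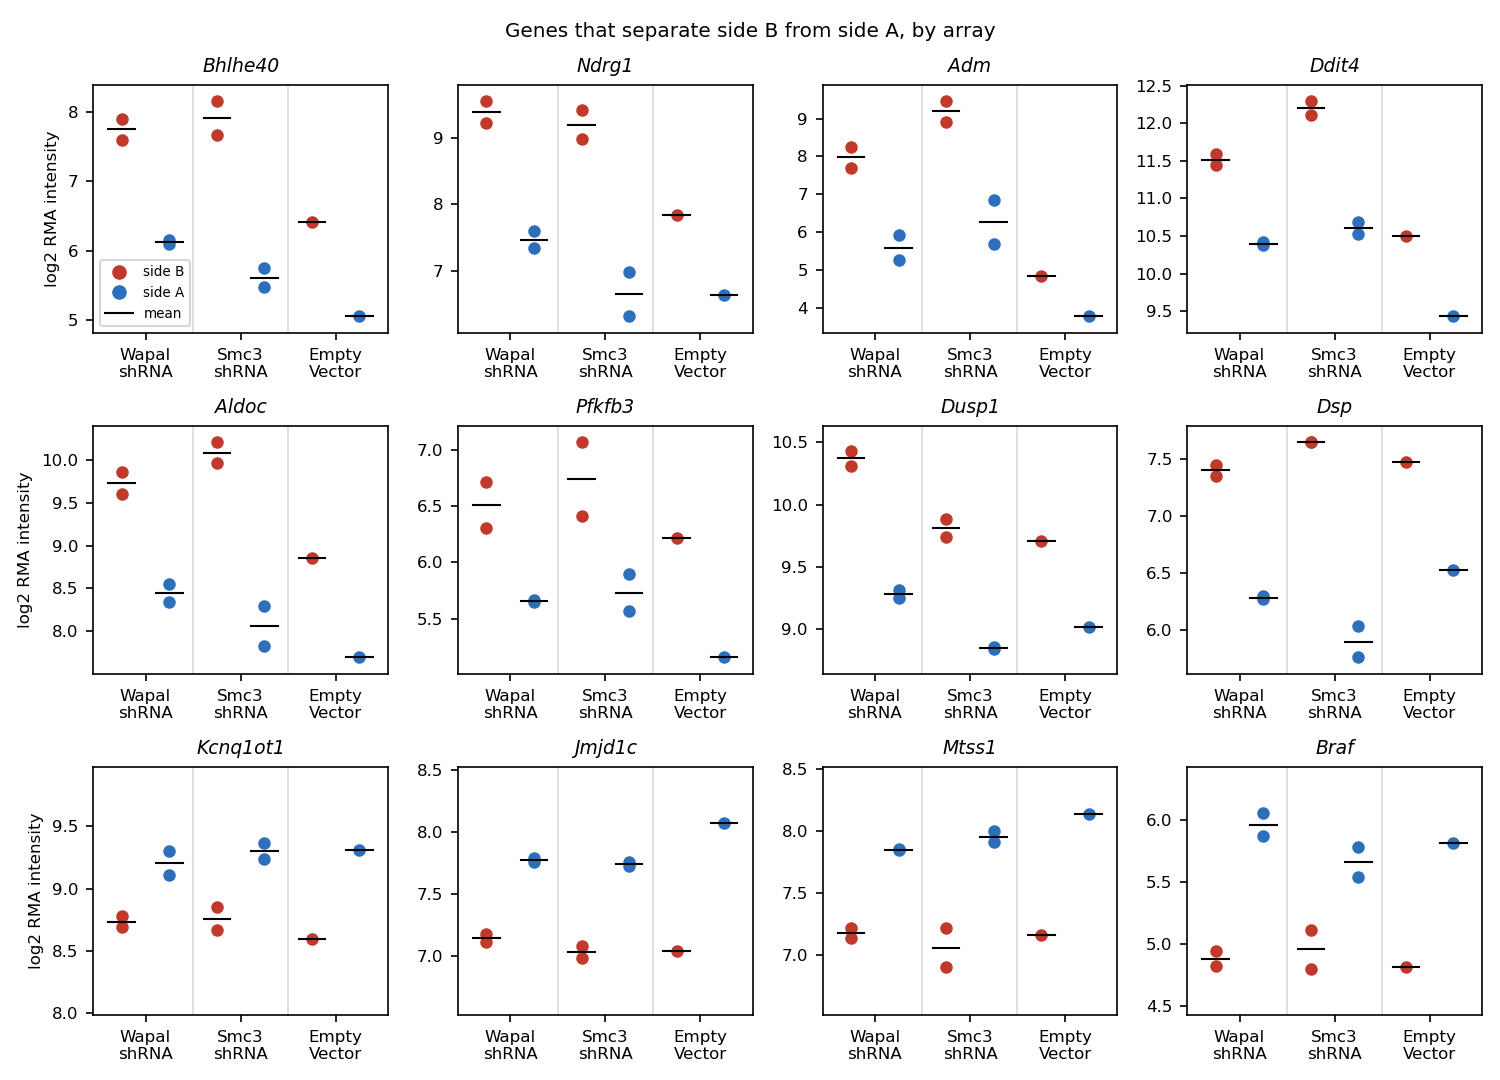
Log2 RMA intensity (vertical axis) of 12 genes on each of the 10 arrays, by target, with side B in red left of side A in blue and a black line at the mean. The first 8 genes lay higher on side B in every target, and Kcnq1ot1 and the shown probe sets of Jmjd1c, Mtss1 and Braf lay higher on side A.

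Counted on the brightest probe set of each gene, 10 of the 28 measured genes of the hypoxia list outside glycolysis separated the sides, all higher on side B. Over all 18193 genes, 1.06% separated with side B higher and 0.159% with side A higher, so the brightest probe sets ran mostly toward side B. With no minimum gap, 18 of the 28 genes had side B arrays above side A arrays without overlap in all 3 targets (10.9% of all genes), and 0 had the reverse (6.62% of all genes). The median side difference of this list was 0.67 in log2, against 0.02 over all genes, with 0.43 in the Wapal arrays, 0.95 in the Smc3 arrays and 0.30 in Empty Vector. At the low end stood Hif1a, the oxygen-regulated subunit itself, with -0.08 ± 0.08. As with every list here, the genes were chosen with earlier results of these data known, so these counts describe the split and do not test it.

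The glycolysis genes moved as a broad group. Of 20 measured genes, 18 had side B above side A without overlap in all 3 targets (10.9% of all genes). Of these, 8 did so by more than 0.3 (1.06% of all genes), and 1 gene had the reverse (6.62%). The list's median was 0.43 in log2, with 0.45 in the Wapal arrays, 0.47 in the Smc3 arrays and 0.43 in Empty Vector, so that it was about the same in all 3 targets. Aldoc, the aldolase of brain that hypoxia also induces, measured 778 and 928 against 374 and 324 in the Wapal arrays, 1179 and 996 against 228 and 315 in the Smc3 arrays, and 464 against 208 in Empty Vector (1.55 ± 0.15). It had the largest difference of the list, and the lowest was that of the lactate transporter gene Slc16a1 (-0.14 ± 0.07). The other Aldoc probe set, with a mean of only 3.37 in log2, differed by 0.13 ± 0.12 and did not separate the sides. Hk1, a hexokinase that starts glycolysis, measured 353 and 361 against 233 and 239, 446 and 409 against 249 and 245, and 364 against 224, a difference of 0.70 ± 0.07 with little spread within the sides.

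Pfkfb3, which makes the activator of phosphofructokinase, measured 79.0 and 105 against 50.8 and 50.2 in the Wapal arrays, 134 and 85.1 against 47.5 and 59.4 in the Smc3 arrays, and 74.5 against 35.6 in Empty Vector (0.96 ± 0.13). Its other probe set showed -0.04 ± 0.07. The phosphofructokinase genes Pfkp (0.84) and Pfkl (0.75), Hk2 (0.51), the muscle aldolase gene Aldoa (0.47) and the phosphoglycerate kinase gene Pgk1 (0.40) also separated the sides. Pgk1 showed how small but regular such a difference was, with 11534 and 12203 against 9166 and 9171, 13349 and 12592 against 9329 and 10200, and 10026 against 7494. Across all 10 arrays its sides overlapped, and Empty Vector lay lower than the depleted arrays on both sides. The glucose transporter genes Slc2a1 and Slc2a3 separated the sides by other probe sets than their brightest.

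Of the glycogen genes, 3 of 14 separated the sides, all higher on side B (1.06% of all genes), and the list's median was 0.26. They were Pygl, the glycogen phosphorylase of liver, and Ppp1r3c and Ppp1r3b, which bring a phosphatase to glycogen. Pygl measured 64.1 and 61.8 against 23.8 and 17.6 in the Wapal arrays, 108 and 84.7 against 16.8 and 18.5 in the Smc3 arrays, and 40.4 against 19.1 in Empty Vector (1.84 ± 0.18). On side A it was near the dim end in all 5 arrays, whereas the lowest side B array was at 40.4. Ppp1r3c differed by 1.36 ± 0.13 and Ppp1r3b by 1.03 ± 0.11, and Phkb, a phosphorylase kinase subunit, by -0.30 ± 0.25, with opposite signs in the Wapal arrays (0.49) and the Smc3 arrays (-1.29).

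**Figure D2:**
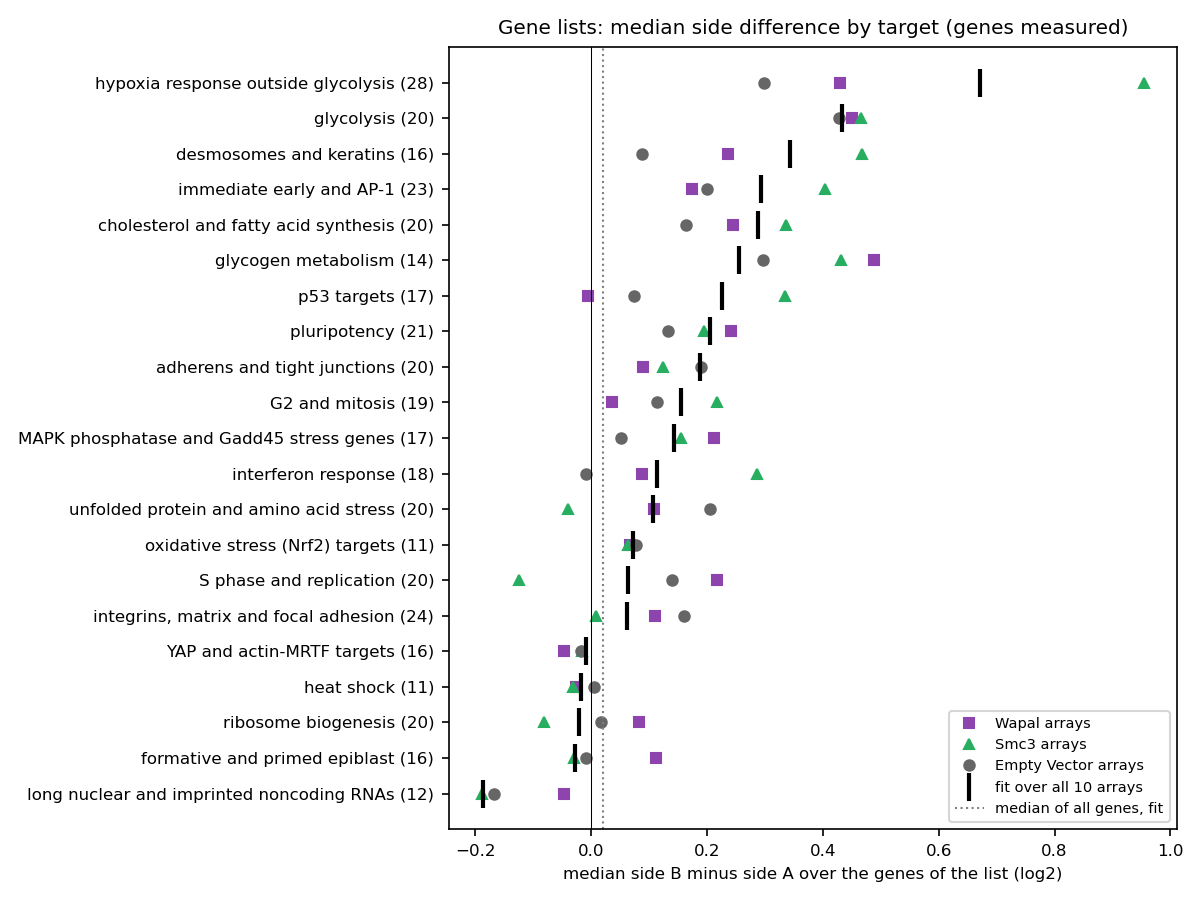
Median of side B minus side A in log2 (horizontal axis) over the genes of each pathway or process list (rows, with the number of genes measured; cell type markers not drawn), within the Wapal arrays (squares), the Smc3 arrays (triangles) and Empty Vector (circles), with the fit over all 10 arrays as a bar. Of the lists drawn, the hypoxia list had the highest median, 0.67, the glycolysis list followed with 0.43, and heat shock, ribosome biogenesis and the YAP targets lay near the median of all genes (0.02).

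Early response genes were in part higher on side B. Of 23 measured genes, 5 separated the sides (1.06% of all genes), namely Ier3 (1.80 ± 0.19), Fos (0.91 ± 0.08), Jun (0.76 ± 0.08), Maff (0.72 ± 0.11) and Klf10 (0.67 ± 0.08). Without a minimum gap, 10 had side B above side A without overlap in all 3 targets (10.9% of all genes) and 0 the reverse (6.62%). The median was 0.29, with 0.17 in the Wapal arrays, 0.40 in the Smc3 arrays and 0.20 in Empty Vector. Ier3, which modulates NF-kappaB and ERK signalling, measured 779 and 1054 against 342 and 354, 1334 and 1124 against 195 and 248, and 372 against 153. Fos, the AP-1 subunit, measured 230 and 221 against 115 and 137, 314 and 274 against 160 and 139, and 149 against 79.8. Other genes of this class did not follow, with Egr3 at -0.02, Ier2 at 0.01 and Srf, the lowest, at -0.17.

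Of the MAPK phosphatase and Gadd45 genes, 3 of 17 separated the sides (1.06% of all genes with side B higher): Dusp1, Dusp16 and Gadd45b. Dusp1, which dephosphorylates MAP kinases after stress, measured 1272 and 1381 against 635 and 609 in the Wapal arrays, 945 and 853 against 461 and 458 in the Smc3 arrays, and 834 against 517 in Empty Vector (0.96 ± 0.08). All side B arrays lay above all side A arrays. Gadd45b is a stress sensor that activates p38 and JNK signalling. It measured 400 and 498 against 234 and 222, 413 and 311 against 125 and 169, and 323 against 229 (1.01 ± 0.14). Its other probe sets differed by 0.25 ± 0.11 and 0.69 ± 0.11 and did not separate the sides by the rule. The list's median was only 0.14, and Dusp4 was at its low end with -0.92 ± 0.37, a value set by the Smc3 arrays (-2.39), against 0.16 in the Wapal arrays and -0.11 in Empty Vector.

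Other stress lists held few genes that separated the sides. Over all genes, 1.06% separated with side B higher and 0.159% with side A higher. Of the heat shock list 1 of 11 genes separated, Hspa1a, the inducible Hsp70 (1.49 ± 0.14), with a median of -0.02 and Hsph1 lowest at -0.14. Hspa1a measured 312 and 271 against 79.2 and 71.3, 214 and 195 against 89.4 and 71.6, and 93.0 against 51.0. Of the unfolded protein and amino acid list 1 of 20 separated, the serine synthesis gene Phgdh (0.58 ± 0.07), while Nupr1 had the largest difference (0.82) and Slc7a3 the lowest (-0.41). None of 17 p53 targets and none of 11 Nrf2 targets separated the sides, with medians of 0.23 and 0.07. Their extremes were Fas (0.60) and Sesn2 (-0.28), and Me1 (0.45) and Slc7a11 (-0.06). The p53 median was -0.01 in the Wapal arrays, 0.33 in the Smc3 arrays and 0.08 in Empty Vector. Without a minimum gap, 5 p53 targets had side B above side A without overlap in all 3 targets (10.9% of all genes). The reverse held for 0 (6.62%), and 8 had a positive difference in each target (23.1% of all genes).

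Of 16 desmosome and keratin genes, Dsp and Krt19 separated the sides (1.06% of all genes with side B higher), and the median was 0.34. With no minimum gap, 6 of these 16 genes had side B above side A without overlap in all 3 targets (10.9% of all genes). The reverse held for 1 (6.62% of all genes). Dsp, the desmoplakin that ties desmosomes to keratin filaments, measured 175 and 163 against 77.0 and 78.7 in the Wapal arrays, 200 on both arrays against 65.6 and 54.2 in the Smc3 arrays, and 177 against 91.9 in Empty Vector (1.33 ± 0.12). The side B arrays were alike in all 3 targets, which sets Dsp apart from Ndrg1 and Adm, whose levels also differed between targets. A further Dsp probe set gave 1.42 ± 0.08, and the remaining one gave -0.05 ± 0.07.

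Krt19, a keratin of simple epithelia, differed unevenly, with 105 and 109 against 44.5 and 43.0 in the Wapal arrays, 312 and 237 against 30.0 and 38.5 in the Smc3 arrays, and only 51.6 against 38.0 in Empty Vector (1.81 ± 0.31). Other members of this list were Krt18 (0.92), Krt7 (0.89) and Krt8 (0.84), none of which separated the sides by the rule. In Empty Vector Krt18 and Krt7 were lower on side B (-0.19 and -0.27) and Krt8 differed by 0.07, so these keratins did not follow the side there. Dsg2 was lowest at -0.25. Of 20 junction genes 1 separated, the claudin gene Cldn7 (1.41 ± 0.28), which ranged from 78.5 to 296 on side B and from 47.9 to 74.5 on side A. With no minimum gap, 6 of the 20 junction genes had side B above side A without overlap in all 3 targets (10.9% of all genes). The reverse held for 1 (6.62% of all genes), and 11 had a positive difference in each target (23.1% of all genes). Cdh1, which encodes E-cadherin, had a difference of 0.00, and Cdh2, N-cadherin, had the lowest of the list (-0.67 ± 0.19). Of 24 integrin and matrix genes and 16 YAP and actin-MRTF targets, 0 separated the sides (1.06% of all genes with side B higher). Their medians were 0.06 and -0.01. The extremes of these lists were Nid1 (0.31) and Itgb1 (-0.27), and Tagln2 (0.46) and Ajuba (-0.38).

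The rest of the 12 leading genes of side B came from several classes. Anxa2, a calcium-dependent membrane-binding protein, measured 2181 and 2496 against 856 and 889 in the Wapal arrays, 3200 and 2461 against 682 and 886 in the Smc3 arrays, and 535 against 273 in Empty Vector (1.50 ± 0.13). Tgm2, a transglutaminase that crosslinks proteins, measured 70.8 and 75.0 against 36.8 and 33.0, 84.9 and 71.2 against 37.1 and 37.7, and 96.0 against 53.2 (1.02 ± 0.08). The brightest Tgm2 probe set differed by 0.35 and did not separate the sides. In the leading probe set the Empty Vector arrays were the highest of their side, unlike in Adm, Anxa2 and Ddit4.

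Of 20 cholesterol and fatty acid synthesis genes, 10 had side B above side A without overlap in all 3 targets with no minimum gap (10.9% of all genes). The reverse held for 0 (6.62% of all genes), and 14 had a positive difference in each target (23.1% of all genes). The median of this list was 0.29. In this and the other remaining lists the genes that separated the sides by the rule were Acly, which makes cytosolic acetyl-CoA (0.46 ± 0.07), Kif23, a kinesin of cytokinesis (0.76 ± 0.11), Irf1, an interferon-regulated transcription factor (0.98 ± 0.18), and Neat1, the nuclear RNA that builds paraspeckles (1.05 ± 0.13). Stard4 led the sterol list with 0.80 and Scd2 was lowest with -0.06. In the interferon list Gbp2 had the largest difference (2.21 ± 0.42) and Ddx58 the lowest (-0.61), and in the mitosis list Mad2l1 was lowest (-0.16). Among 19 measured mitosis genes, 7 had side B above side A without overlap in all 3 targets with no minimum gap (10.9% of all genes). The reverse held for 1 (6.62%), and 9 had a positive difference in each target (23.1% of all genes). None of 20 replication genes, 20 ribosome biogenesis genes or 16 formative epiblast genes separated. Their extremes were Rrm2 (0.22) and Ccne2 (-0.32), Pes1 (0.15) and Polr1b (-0.28), and Etv5 (0.41) and Etv4 (-0.64). Over all genes, 1.06% separated with side B higher and 0.159% with side A higher, so none in lists of this size is close to that share.

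Of 21 pluripotency genes 0 separated by the rule (1.06% of all genes with side B higher). With no minimum gap, 8 had side B above side A without overlap in all 3 targets (10.9% of all genes) and 2 the reverse (6.62%). Klf4, a factor of the naive state, was highest in the list (0.67 ± 0.13), with Klf2 at 0.61 and Prdm14 at 0.60, and Nr0b1 was lowest (-0.46 ± 0.13). Pou5f1, which encodes Oct4, ranged from 7572 to 9612 on side B and from 7774 to 8516 on side A. The summed intensity of the 8 stem cell markers was 61790 to 67884 on side B and 56599 to 62479 on side A.

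Marker lists of other cell types were mostly dim. Of 14 fibroblast markers, 12 had a mean under 6 in log2, Pdgfrb separated the sides (0.95 ± 0.10), the collagen marker Col1a1 was at 17.0 to 22.4 and Dcn was lowest (-0.24), and their sum was 444 to 530 on side B and 384 to 478 on side A. Trophectoderm markers summed to 824 to 952 on side B and 591 to 764 on side A, with Cdx2 at 25.9 to 37.7 on all arrays, Krt7 highest (0.89 ± 0.22) and Tead4 lowest (-0.22). The two-cell-like list had a median of 0.74 (0.82 in the Wapal arrays, 0.74 in the Smc3 arrays and 0.33 in Empty Vector). Only 5 of its 11 listed genes were measured, and Zscan4c, Zscan4d, Zscan4f and Dux were not among them. Of the 5, 3 separated (1.06% of all genes), namely Tcstv3 (1.19 ± 0.16), Sp110 (0.75 ± 0.09) and Usp17la (0.74 ± 0.09), and Tcstv1 was lowest (0.24). The two-cell-like sums were 2102 to 4933 on side B and 1683 to 2953 on side A. Most of this came from Usp17la, with mean intensities of 3129 and 1827. The neuroectoderm marker Map2 separated (1.12 ± 0.14), and Zic1 was lowest there (-0.17), with sums of 711 to 873 and 556 to 697. Endoderm sums were 2254 to 2750 and 2115 to 2982 (Foxa2 0.31, Gata6 -0.10) and mesoderm sums 385 to 451 and 397 to 432 (Eomes 0.27, Msgn1 -0.09). Most of the endoderm sum came from Sparc, at 1806 to 2648 over all arrays, and 11 of the 12 endoderm markers had a mean under 6 in log2. In bulk samples fewer cells of a type and less RNA per cell cannot be told apart, and the part of other cells in the side difference was not tested.

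The probe sets higher on side A were of another kind than those higher on side B. Of 223, 121 carried no gene name (54.3%), against 21 of 302 on side B (6.95%) and 20.3% of all probe sets. Of the 88 in genes with several probe sets, 16 were the brightest of their gene (18.2%), against 93 of 172 on side B (54.1%) and 35.0% of all. The median of their mean levels was 6.78 in log2 for side A and 7.15 for side B. All but one of the 12 leading genes of side A were called by a probe set dimmer than another of the same gene.

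For 72 such probe sets of side A the brightest probe set of the same gene could be set beside the member. The members had a median side difference of -0.61 and the brightest ones -0.07, and 3 of the 72 brightest separated the sides too, while 18 had the opposite sign. For the 79 corresponding members of side B these medians were 0.71 and 0.55, 24 of the brightest separated as well, and 4 had the opposite sign. The members were selected for their difference and the brightest probe sets were not, so some fall toward 0 is built into the choice on both sides. The members of side A thus had little difference at the brightest probe set of the same gene, and those of side B kept more of it.

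**Figure D3:**
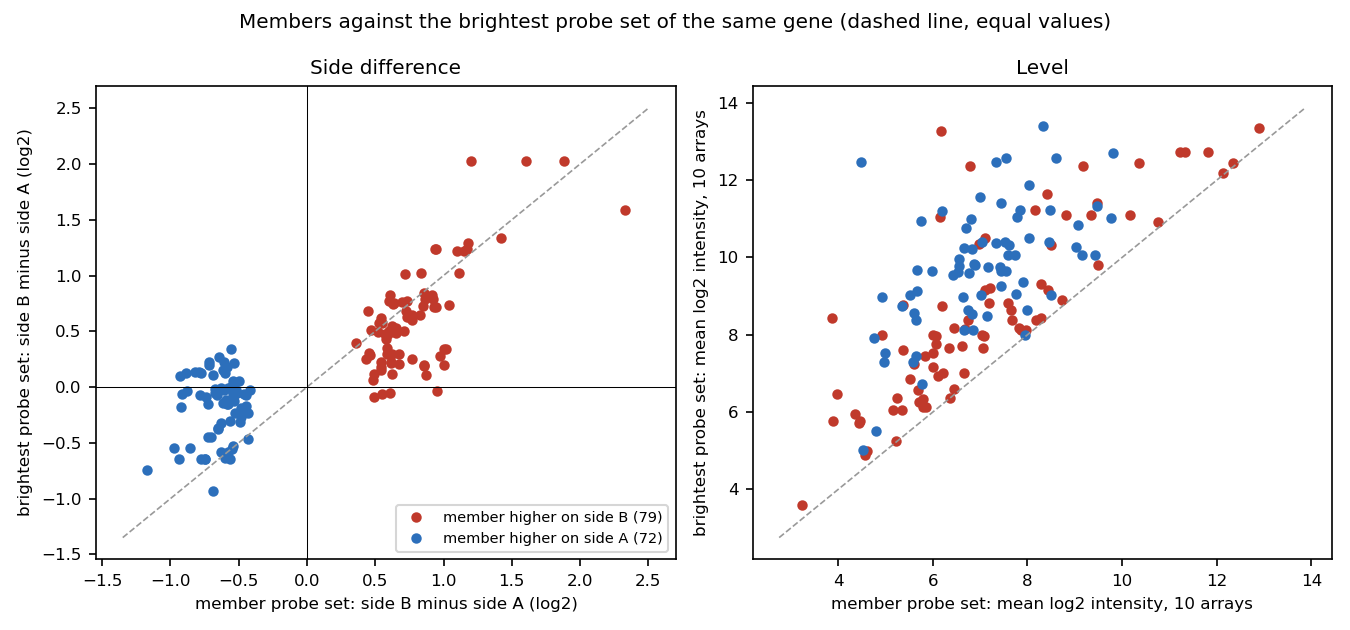
Each point is a member that is not the brightest probe set of its gene (horizontal axis) set against the brightest one (vertical axis), in red for members higher on side B and in blue for those higher on side A. The left panel gives side B minus side A in log2 and the right panel the mean log2 intensity over 10 arrays, with a dashed line at equal values. Blue points lie near 0 on the vertical axis of the left panel (median -0.07), and red points spread along the dashed line (median 0.55).

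Kcnq1ot1, the long noncoding RNA that silences the imprinted Kcnq1 cluster, separated the sides by its brightest probe set, which measured 412 and 438 on side B against 629 and 551 on side A in the Wapal arrays, 405 and 461 against 604 and 661 in the Smc3 arrays, and 387 against 634 in Empty Vector (-0.55 ± 0.08). All side A arrays lay above all side B arrays. A dimmer Kcnq1ot1 probe set showed -0.85 ± 0.09, and all 6 probe sets had negative differences. In the noncoding RNA list, whose median was -0.19, it was the lowest and Neat1 the highest.

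Jmjd1c, a Jumonji-domain protein, differed by one probe set, with 145 and 139 against 216 and 221, 136 and 127 against 217 and 212, and 131 against 269 (-0.74 ± 0.08). Its brightest probe set measured 2703 and 2550 against 2757 and 2782, 2673 and 2677 against 2877 and 2824, and 2472 against 2671, a difference of -0.09 ± 0.06. Mtss1, an actin and membrane-binding protein, had -0.82 ± 0.08 and -0.79 ± 0.10 by a pair of probe sets, while its brightest had 0.14 ± 0.14. Braf, a kinase of the MAPK cascade, had -0.92 ± 0.10 by a probe set with 30.7 and 28.3 against 58.4 and 66.6, 27.9 and 34.6 against 46.6 and 55.1, and 28.1 against 56.2, while its brightest of 9 had -0.06 ± 0.07. The transcript of each of these genes thus looked different or alike on the sides depending on the probe set.

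The other leading genes of side A were Etv4 (-0.94), an ETS factor downstream of FGF signalling, Uty (-0.89), Enox1 (-0.98), Nup153 (-0.67), a nuclear pore protein, Gm19710 (-0.74), Dtl (-0.93), which targets replication proteins for degradation, Ddhd2 (-0.69), a phospholipase, Khdc4 (-0.61) and Rc3h2 (-0.72), an RNA-binding ubiquitin ligase. Etv4 measured 38.2 and 36.5 against 60.3 and 65.8, 28.2 and 26.3 against 65.1 and 55.1, and 58.9 against 110. These differences lay between -0.61 and -0.98, narrower than those of the 12 leading genes of side B, which lay between 1.02 and 2.33. Except for Gm19710, which had no other probe set, the genes of this paragraph were called by a dimmer probe set. Their brightest ones did not separate the sides. These differed by -0.64 (Etv4), -0.55 (Enox1), -0.03 (Nup153), 0.12 (Uty), 0.10 (Dtl), 0.11 (Ddhd2), 0.23 (Khdc4) and 0.20 (Rc3h2).

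A Wapl probe set was itself a member. Wapl, the gene of the protein called Wapal, releases cohesin from DNA, and its brightest probe set measured 235 and 217 with Wapal shRNA2 (side B) and 929 and 1005 with Wapal shRNA1 (side A), against 2648 and 2500 in Empty Vector. The depletion was thus deeper on side B, and Wapl fell with Wapal depletion by 2.46 ± 0.39 in log2 (limma, adjusted p = 0.00626). This call was lost without Empty Vector replicate 2 (-1.83, limma, adjusted p = 0.0929) and with no side term (0.0537). A dimmer Wapl probe set separated the sides instead, with 97.2 and 106 on side B against 175 and 170 on side A in the Wapal arrays, 108 and 106 against 170 and 146 in the Smc3 arrays, and 99.6 against 171 in Empty Vector. Its change with Wapal depletion was 0.02 ± 0.10 (limma, adjusted p = 0.922), so this probe set followed the side and showed no detectable fall where the main Wapl signal fell. Smc3, a cohesin ring subunit, measured 187 and 176 with Smc3 shRNA1 (side B) and 223 and 189 with Smc3 shRNA2 (side A), against 1555 and 1536 in Empty Vector, and fell 8.01-fold (SE 0.10 in log2, limma, adjusted p = 5.41e-08).

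Over the members of side B the median was 0.65 in the Wapal arrays, 0.89 in the Smc3 arrays and 0.48 in Empty Vector, which rests on 1 array a side. Over those of side A it was -0.59, -0.65 and -0.64. Over all probe sets the within-target differences correlated at r = 0.40 between Wapal and Empty Vector, 0.31 between Smc3 and Empty Vector and 0.33 between Wapal and Smc3 (Spearman 0.33, 0.25 and 0.23). These 3 differences share no array, but which array of each target was put on which side was chosen from the same values, and probe sets are no independent replicates. The side took 23.6% of the spread over all probe sets, the target 42.7% and the remainder 33.7%. In the first principal component of probe sets with a mean log2 of at least 6 the side B array was lower than the side A array within each target, but a Smc3 side A array lay beside Empty Vector replicate 2, so this component did not part the sides across targets.

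**Figure D4:**
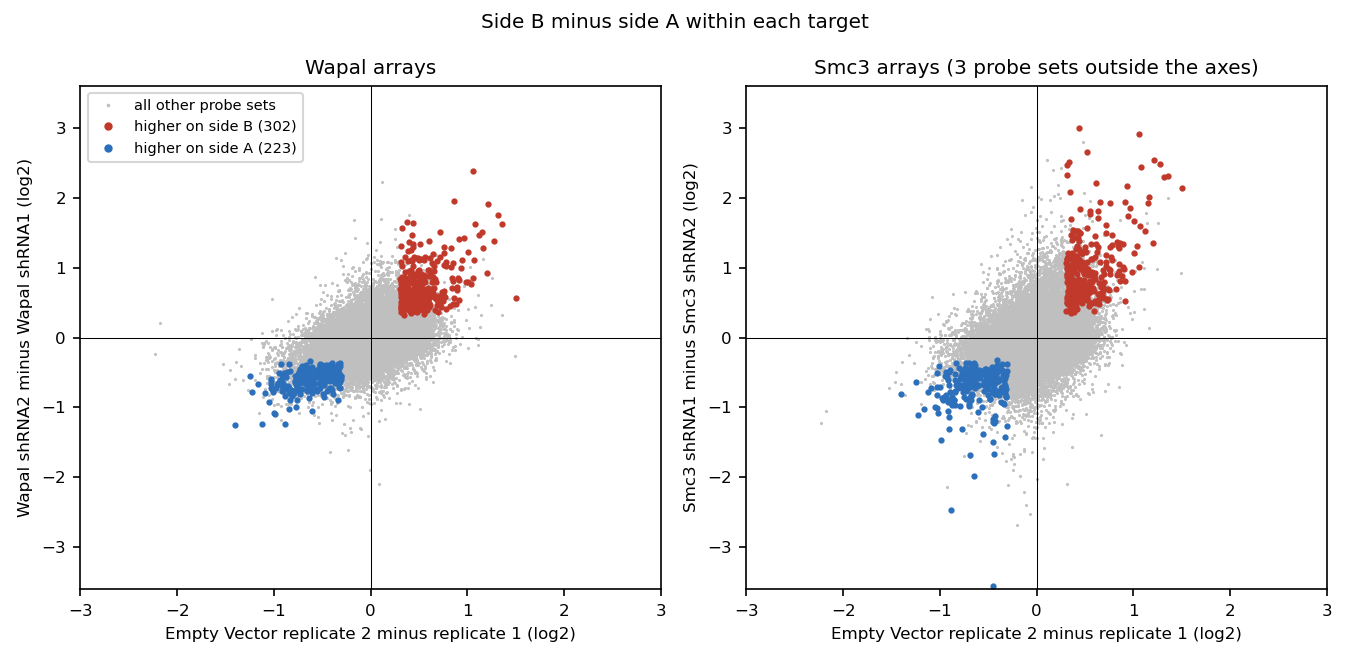
Side B minus side A in log2 within the Wapal arrays (left, vertical axis) and within the Smc3 arrays (right, vertical axis) against Empty Vector replicate 2 minus replicate 1 (horizontal axis), 1 point per probe set. Members higher on side B (302, red) and on side A (223, blue) lie in the upper right and lower left by selection, and all other probe sets are grey. Over all probe sets, members included, r was 0.40 and 0.31, and 3 probe sets lie outside the axes of the right panel.

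Array controls also differed between the sides. The poly-A spike-ins, bacterial transcripts that are normally added to the total RNA before labelling, were lower on side B in each target for all 24 probe sets, by a median of 0.36 in log2 in the Wapal arrays, 0.24 in the Smc3 arrays and 0.43 in Empty Vector. For 14 of the 24 the arrays did not overlap in any target. The hybridisation spike-ins, added after labelling, were lower on side B in all 3 targets for 15 of 18 probe sets, by smaller medians of 0.12, 0.07 and 0.14. The 3′ minus 5′ difference of beta-actin, a sign of RNA integrity, was 0.63 to 0.76 on side B and 0.65 to 0.81 on side A, and that of Gapdh was 0.02 to 0.10 and 0.07 to 0.10. The 18S rRNA probe sets were also lower on side B, by 0.21 to 0.35 on average. The part of RNA input, labelling or array batch in the side difference was not tested.

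**Figure D5:**
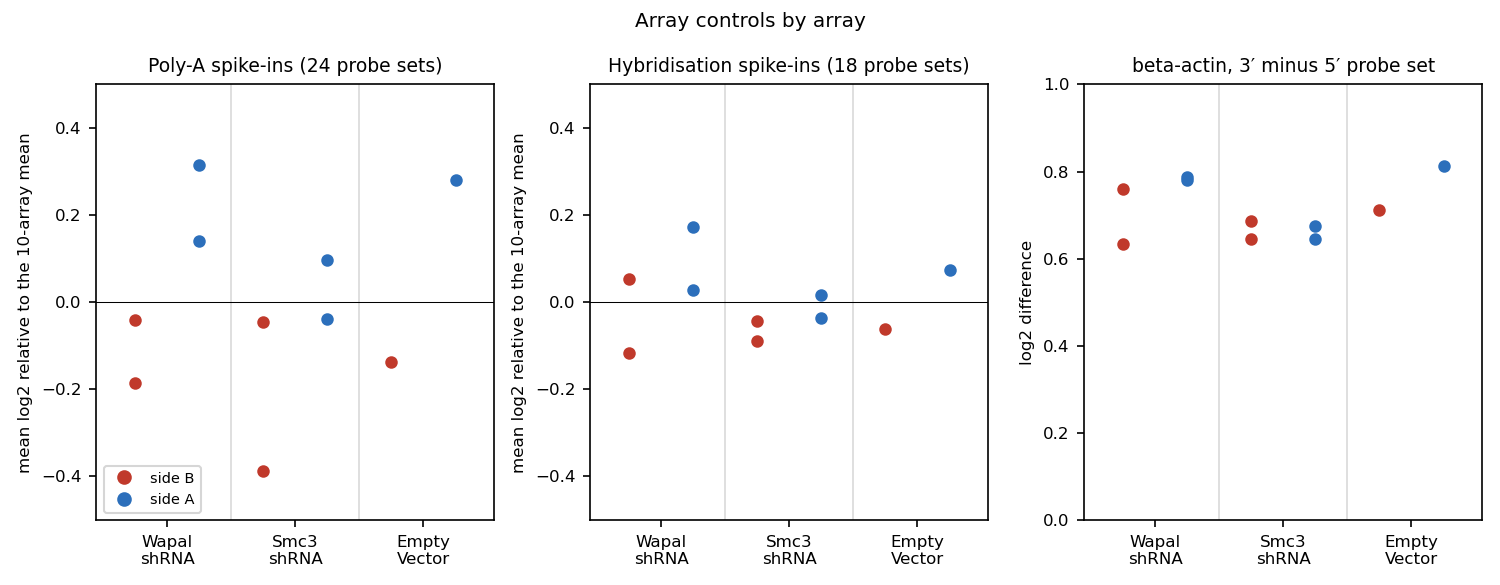
Mean log2 signal of the poly-A spike-ins (left) and of the hybridisation spike-ins (middle), each relative to its mean over the 10 arrays, and the 3′ minus 5′ log2 difference of beta-actin (right), on each array by target, with side B in red left of side A in blue. The poly-A spike-ins lay from -0.39 to -0.04 on side B and from -0.04 to 0.32 on side A.

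Each depletion has arrays on both sides, as Empty Vector has, and was tested against Empty Vector (limma with target and side, Benjamini-Hochberg adjustment of the p-values of all 45037 probe sets, threshold 0.05). Among the 302 members of side B, 65 rose and 14 fell with Wapal depletion, where 1.83% of all probe sets rose and 3.34% fell. With Smc3 depletion 81 rose and 11 fell, where 3.53% of all rose and 3.16% fell. Among the 223 members of side A, 2 rose and 31 fell with Wapal depletion, and 6 rose and 42 fell with Smc3 depletion. The members were selected on these same 10 arrays, so their shares are a description beside those of all probe sets, and both depletions share the Empty Vector arrays. The calls also rest on the side term: without it 0 members of side B rose with Wapal depletion and 5 with Smc3 depletion. They rest on the Empty Vector arrays as well: without Empty Vector replicate 2, 10 and 33 rose, and without Empty Vector replicate 1, 33 and 64. These p-values rest on the spread between arrays that target and side leave over, which may be technical. The side was itself read from these values. In the members this remainder was 10.2% (side B) and 9.76% (side A) of the spread, against 33.7% over all probe sets. It is small there in part by selection, so the p-values of members are no independent support.

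Of the leading genes, Anxa2 rose by 1.90 ± 0.18 with Wapal depletion (limma, adjusted p = 0.000734) and 1.95 ± 0.18 with Smc3 depletion (adjusted p = 0.000131). Adm rose by 2.47 ± 0.39 and 3.42 ± 0.39 (adjusted p = 0.00627 and 0.000453), and Ddit4 by 0.99 ± 0.14 and 1.44 ± 0.14 (adjusted p = 0.00327 and 0.000127). Bhlhe40, Ier3, Aldoc, Ppp1r3c and Hspa1a also rose with both, by 0.74 to 1.23, and the leading Ndrg1 probe set rose with Wapal depletion (1.21 ± 0.28) and did not pass with Smc3 depletion (0.82 ± 0.28). Without Empty Vector replicate 2, Wapal depletion passed for none of these genes but Anxa2 (limma, adjusted p of 0.0547 to 0.325 for the others). Smc3 depletion then passed for Anxa2, Adm and Ddit4, and no longer for Bhlhe40, Ier3, Aldoc, Ppp1r3c and Hspa1a (limma, adjusted p of 0.0993 to 0.339). Without Empty Vector replicate 1, the Wapal calls of Ier3, Aldoc, Ppp1r3c and Ndrg1 (limma, adjusted p of 0.0747 to 0.113) and the Smc3 calls of Ier3 and Aldoc (0.0596 and 0.0872) were lost. With no side term none of these genes passed with either depletion, Anxa2 included (limma, adjusted p = 0.161 and 0.151). An offset of 16 before log2 lost the Wapal calls of Aldoc, Ppp1r3c and Ndrg1 (limma, adjusted p of 0.0587 to 0.0800). It also lost the Smc3 calls of Ier3, Aldoc and Hspa1a (0.0501 to 0.0637). The same Wapal calls were lost with 1 mean per group (limma, adjusted p of 0.0540 to 0.0761), as was the Smc3 call of Aldoc (0.0820). Aldoc lost both calls with the replicate number as a block (0.0624 and 0.0558). Tgm2 fell with both, by 0.50 and 0.41, but both calls were lost without Empty Vector replicate 1 (limma, adjusted p = 0.229 and 0.399), without replicate 2 (0.0663 and 0.0788), with 1 mean per group (0.117 and 0.224) and with no side term (0.593 and 0.754). Dsp did not pass with either (-0.15 ± 0.17 and -0.22 ± 0.17), nor did Hk1 (0.02 ± 0.09 and 0.19 ± 0.09), Gadd45b (0.23 ± 0.19 and -0.25 ± 0.19), Pygl (0.37 ± 0.25 and 0.56 ± 0.25) or Pfkfb3 (0.40 ± 0.17 and 0.55 ± 0.17). On side A, Etv4 fell with both, by 0.73 and 0.99. Its Wapal call was lost without Empty Vector replicate 1 or 2 (limma, adjusted p = 0.0802 and 0.073), and both calls were lost with no side term (0.382 and 0.258). The leading probe sets of Kcnq1ot1, Jmjd1c, Mtss1, Nup153, Gm19710 and Khdc4 passed with neither. The difference between both depletions passed for 12.2% of all probe sets.

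Counted over lists by the brightest probe set, where 2.36% of genes rose and 4.07% fell with Wapal depletion and 5.1% rose and 3.5% fell with Smc3 depletion, the same tests gave the following. Of 28 hypoxia genes 8 rose and 0 fell with Wapal depletion and 12 rose and 1 fell with Smc3 depletion. Of 20 glycolysis genes 4 rose and 0 fell with each, and of 23 early response genes 4 and 8 rose and 0 fell. Of the desmosome and keratin genes 0 rose and 1 fell with Wapal depletion and 1 rose and 1 fell with Smc3 depletion. Of the pluripotency genes 2 rose and 6 fell with Wapal depletion and 1 rose and 9 fell with Smc3 depletion. With no side term these pluripotency counts were 0 and 0 with Wapal depletion and 0 and 5 with Smc3 depletion. Without the side term none of the hypoxia or glycolysis genes passed, and of the early response genes 1 rose with Wapal depletion and 3 with Smc3 depletion.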

How the data were processed

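RNA of 10 arrays (Affymetrix 430 2.0, mouse, 1 colour) was measured. The authors deposited RMA-normalized intensity values on a linear scale, which were used as deposited. RMA corrects background, equalises arrays and summarises probes, and it sets all arrays to nearly the same median intensity (38.7 to 39.7). Which arrays were normalized together is not given in the sources used here. The log2 of these values was analysed without an offset, over 45037 probe sets after 64 control probe sets were left out. Probe sets were named through the platform annotation (34945 with 1 symbol, 932 with several and 9160 with none), and lists were counted on the brightest probe set of each gene. No depth exists for arrays, and the number of arrays limits the precision.

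The sides, members and 27 gene lists were chosen with earlier results of these data known. Side B minus side A was estimated in limma 3.58.1 (R 4.3.3) with target as a block and given with no test. Wapal and Smc3 depletion were tested against Empty Vector with target and side in the model, all 10 arrays and Benjamini-Hochberg adjustment. The script was tested on simulated data. Named were the 12 genes per side with the largest smallest gap, list genes whose brightest probe set separated the sides, the extremes of each list, genes named when the split was first described, the targeted genes and array controls. Egr3, Ier2, Klf2, Prdm14, Krt18, Krt8, Cdh1, Slc2a1, Slc2a3, Pou5f1, Cdx2 and Col1a1 were added after their values were seen. Replicate numbers did not pair the samples, and the closing section gives the fit with them. One supplement of the study swaps the names of an array of each Wapal hairpin relative to the deposited labels, and the deposited labels were followed here. The swap would move an array of each Wapal hairpin to the other side. By the deposited labels the brightest Wapl probe set was alike within each hairpin, at 235 and 217 with Wapal shRNA2 and 929 and 1005 with Wapal shRNA1.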

Additional observations from a re-analysis of the deposited data

Results flagged for a closer look

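Among 34 genes checked for a difference between the effects of Wapal and Smc3 depletion, 7 differed (limma contrast of both depletions, p adjusted over all probe sets), where 12.2% of all probe sets did. Each value is the log2 change with Wapal depletion minus that with Smc3 depletion. It was -0.452 for Ddit4 (limma, adjusted p = 0.0208), which rose with both depletions and more with Smc3 depletion. It was 0.498 for Dusp1 (adjusted p = 0.0037), with changes of 0.47 and -0.03. On side A, by probe sets that were not the brightest of their genes, it was -0.551 for Uty (adjusted p = 0.00315) and 0.706 for Enox1 (adjusted p = 0.00503). By such probe sets it was also 0.401 for Dtl (adjusted p = 0.0327), -0.425 for Ddhd2 (adjusted p = 0.00836) and -0.337 for Rc3h2 (adjusted p = 0.0268). This contrast cancels the Empty Vector arrays and compares 4 arrays with 4, 2 of each on either side.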

How the results depend on the processing

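The sides rest on a rule read from the same arrays, with 1 Empty Vector array a side, so the counts move with the gap. With gaps of 0.2 and 0.5 in log2 the numbers of probe sets were 616 and 62 on side B and 604 and 30 on side A. With 1 gap over all 10 arrays they were 60 and 63, and with an offset of 16 before log2 side A had 141. Leaving out each array in turn gave 312 to 593 on side B and 256 to 430 on side A. The rule takes the smallest gap, so leaving out an array can only keep or raise a count. The highest counts came without an Empty Vector array, where only the Wapal and Smc3 arrays entered the rule. The median side difference of the members, 0.73 on side B, was 0.48 in Empty Vector alone and 0.22 over the other probe sets of the same genes, and 0.68 to 0.79 with each array left out. On side A, -0.62 became -0.13 over the other probe sets, and -0.64 to -0.59 with each array left out.

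Depletion calls depended most on the side term and on the Empty Vector arrays, and the cause was not tested. Over all probe sets 824 rose and 1502 fell with Wapal depletion, and 1591 rose and 1421 fell with Smc3 depletion. With no side term these were 173, 439, 676 and 640. With 1 mean per group Wapal depletion gave 1636 and 2628 and Smc3 depletion 2427 that rose, and with quantile normalization 964 fell with Wapal depletion. With each array left out the ranges were 127 to 800 and 113 to 1541 for Wapal depletion and 546 to 1543 and 382 to 1366 for Smc3 depletion, lowest without Empty Vector replicate 1.

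Among the members of side B, with no side term, 0 rose and 0 fell with Wapal depletion and 5 rose and 0 fell with Smc3 depletion. Among those of side A the counts were 0, 1, 1 and 0. With 1 mean per group 19 and 24 members of side A fell with Wapal and Smc3 depletion. With an offset of 16, 1 member of side A rose with Wapal depletion, and with 6 arrays in the fit 7 members of side B fell with Smc3 depletion. With each array left out, 10 to 70 members of side B rose and 1 to 17 fell with Wapal depletion, and 33 to 91 rose and 0 to 12 fell with Smc3 depletion. On side A the ranges were 0 to 2, 3 to 32, 1 to 8 and 16 to 40.

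Replicate numbers did not pair the samples (10 pairs of groups, r of -0.156 to 0.0569). With the replicate number as a block, 602 rose and 1130 fell with Wapal depletion, 1396 rose and 1205 fell with Smc3 depletion, and the members' median side differences were 0.74 and -0.61. Of 467 alternatives for the side differences of single genes, 10 moved beyond the replicate spread. Genes selected for separating the sides on these same arrays are among them, so this stability is in part built into the choice. Of 603 each for single genes under Wapal and Smc3 depletion, 66 and 50 lost the call and 3 and 5 gained it, and no direction turned.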
